A study of Homo sapiens with 12 samples.

Results

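A549 is a human cell line from a lung adenocarcinoma, here with a tetracycline-controlled DYRK1B transgene, and its RNA was read as 3' tags. The account concerns 6 of the 12 libraries: numbers 2, 6 and 10, in which CDKN1A and mesenchymal genes are high, and numbers 4, 8 and 12, which hold the most DYRK1B reads relative to their totals. Each set collects libraries whose number leaves the same remainder on division by 4. The other libraries, 1, 5 and 9 and 3, 7 and 11, form a further pair of sets by that arithmetic and are called the odd-numbered sets.

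By their titles the libraries come from a wild-type (WT) DYRK1B line or a Y273F line, in which phenylalanine replaces a tyrosine of the activation loop, and from cultures given doxycycline (2 µg/ml, 7 days) or kept as control. Libraries 2, 6 and 10 are titled WT control 2, WT doxycycline 3 and Y273F doxycycline 1. For numbers 4, 8 and 12 the titles are WT doxycycline 1, control 2 of Y273F and doxycycline 3 of Y273F. Libraries 1, 5 and 9 are titled WT control 1, WT doxycycline 2 and Y273F control 3, and libraries 3, 7 and 11 are titled WT control 3, Y273F control 1 and Y273F doxycycline 2. The sets therefore cross the titled groups, and neither line nor treatment is assigned to a set here. The series text describes separate cell populations grown and lysed in parallel, with 1 batch label for all. Whether a line is a clone or a pool is not stated in the labels, and no line without the transgene is among the samples.

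DYRK1B is a kinase of the DYRK family that is linked to quiescence and to stabilisation of the CDK inhibitors p27 and p21. CDKN1A encodes p21, which halts the cell cycle. In carcinoma cells a mesenchymal shift means more actin-bundling, matrix and adhesion gene expression and less of some epithelial products, and TGF-beta, serum response factor (SRF) and YAP/TAZ with TEAD factors are known to drive parts of it. The integrated stress response is the ATF4-driven programme of amino acid synthesis, transport and tRNA charging that follows phosphorylation of eIF2α.

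Library totals ran from 2815673 to 22319921 counts (4529085, 7265444 and 2815673 in libraries 2, 6 and 10 and 7343936, 3045440 and 9315960 in libraries 4, 8 and 12), and 13838 genes passed the filter on low counts. A floor of 3 counts corresponds to 0.134 to 1.07 CPM (counts-per-million), depending on the library. The share of mitochondrial counts was 4.73 to 5.29% in libraries 2, 6 and 10 and 4.15 to 6.32% in libraries 4, 8 and 12. Unmapped reads made up 23.3 to 27.4% and 21.9 to 26.2% of these sets. No libraries agreed within sampling noise. Some genes that every cell uses had almost no assigned reads (ALDOA had 1 count in all libraries together, NUSAP1 had 0), so a level at 0 can be a matter of counting. CDKN2A, which is known to be deleted in A549 cells, had 0 counts in each library.

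CDKN1A (ENSG00000124762, chromosome 6, 36676463 to 36687332, GRCh38.p14) was read at 253, 273.004 and 238 CPM in libraries 2, 6 and 10 and at 62.0, 47.4 and 62.3 CPM in libraries 4, 8 and 12. In the odd-numbered libraries it lay between 42.6 and 61.3 CPM, so that libraries 4, 8 and 12 did not stand out for p21. DYRK1B (ENSG00000105204, chromosome 19, 39825350 to 39834162) had 28.0, 12.4 and 19.7 CPM in libraries 4, 8 and 12, from 197, 38 and 184 reads. It had 3.12, 7.73 and 4.57 CPM in libraries 2, 6 and 10, from 14, 56 and 13 reads, and 2.60 to 5.70 CPM in the odd-numbered libraries. The opposite strand of DYRK1B held at most 1 read in a library. The sets were chosen by CDKN1A, mesenchymal gene and DYRK1B levels and by a high level of the integrated stress response in both, so these levels are given as a description. DYRK1B transcripts from a construct without the gene's own last exon would not be counted, and the labels do not describe that part of the construct.

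**Figure D1:**
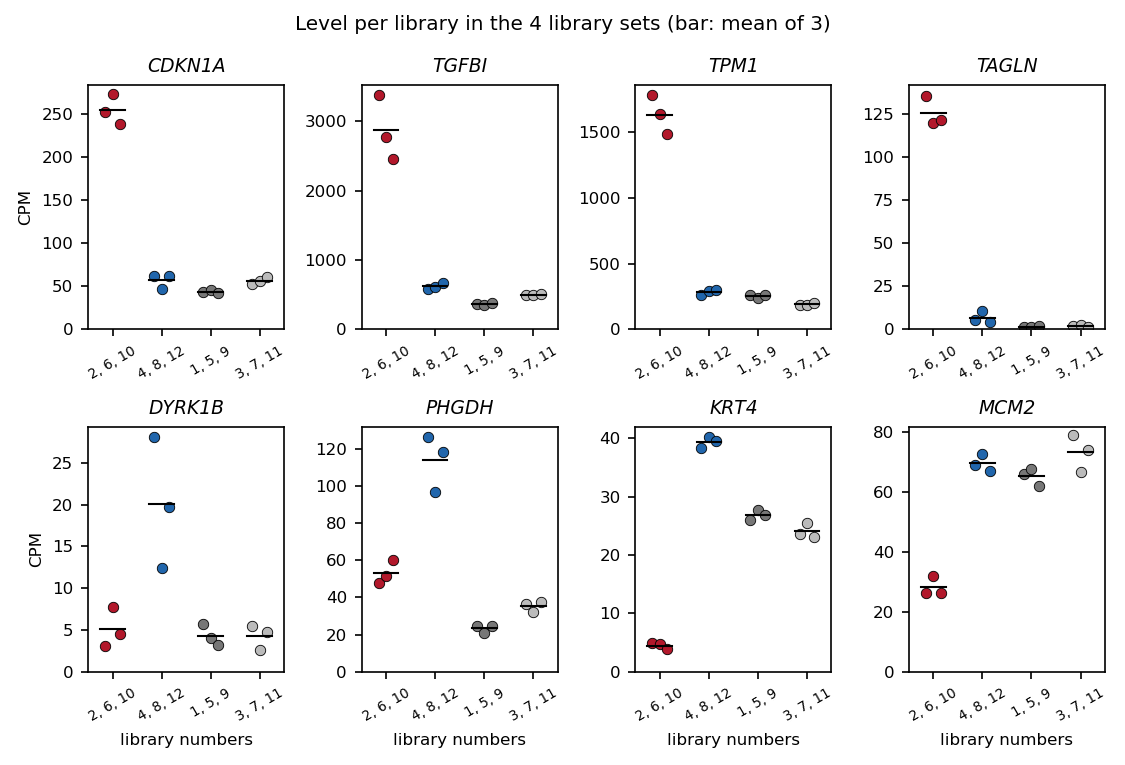
CPM (linear axes from 0) of 8 genes in each library, with points for the 3 libraries of a set and a bar for their mean. CDKN1A, TGFBI, TPM1 and TAGLN are high in libraries 2, 6 and 10, DYRK1B, PHGDH and KRT4 are high in libraries 4, 8 and 12, and MCM2 is at 26.3 to 32.1 CPM in libraries 2, 6 and 10 and at 62.2 CPM or more in the other 9.

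Of the 13838 genes, 1131 (8.17%) were higher in libraries 2, 6 and 10 than in 4, 8 and 12 with no overlap of the libraries and at least a 2-fold ratio of the set means, and 654 (4.73%) were lower. Without the 2-fold limit, 24.7% of genes were higher and 22.3% lower without overlap. The contrast chose the libraries, so these shares are the background for the counts below and nothing is read from them. HMGB1, a chromatin protein gene, lay just inside the limit at 2.0012-fold lower, and ADAMTS15, a matrix protease gene, just outside at 1.9999-fold higher. On the first principal component of the 500 most variable genes, which held 66.3% of the variance, libraries 2, 6 and 10 were at 42.7 to 46.9, libraries 4, 8 and 12 at -8.60 to -4.74 and the odd-numbered libraries at -20.0 to -18.1. Of the 1131 higher genes, 980 (86.7%) had libraries 2, 6 and 10 above all other 9 libraries, while 46 (4.07%) had libraries 4, 8 and 12 below all other 9. Of the 654 lower genes, 515 (78.7%) had libraries 2, 6 and 10 below all others and 28 (4.28%) had libraries 4, 8 and 12 above all others. Among all genes these positions were taken by 18.5%, 1.27%, 15.6% and 1.16%. The separating genes were selected for libraries 2, 6 and 10 lying beyond 4, 8 and 12. Shares over all genes lack that condition, so they are no like background for these positions.

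**Figure D2:**
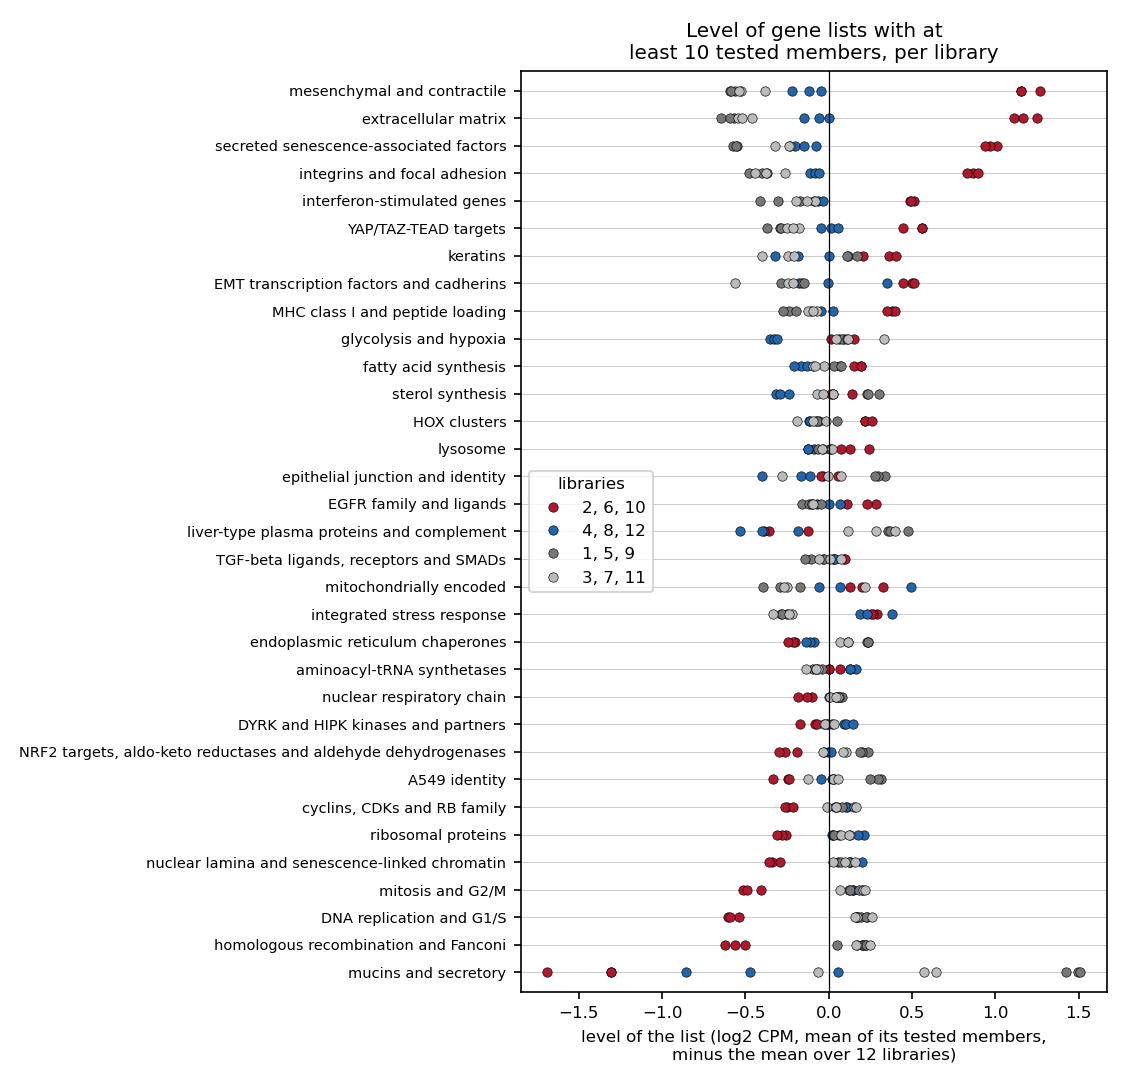
Level of gene lists with at least 10 tested members in each library, as the mean log2 CPM of its members minus the mean over the 12 libraries, with the 4 library sets in 4 colours. Contractile, matrix and secreted-factor lists are highest in libraries 2, 6 and 10 and DNA replication, mitosis and recombination lists lowest, while the integrated stress response list is at 0.19 to 0.38 in both shifted sets and at -0.34 to -0.22 in the odd-numbered sets.

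Genes of the contractile cytoskeleton belong to the mesenchymal shift by which libraries 2, 6 and 10 were chosen. Of 24 listed genes 21 were tested. Among them 17 were higher than in libraries 4, 8 and 12 without overlap and 1 was lower, 11 of the 17 by at least 2-fold, and the median log2 difference was 1.11 beside 0.01 for all genes. TAGLN (chromosome 11, 117199294 to 117207465), which encodes the actin-binding protein transgelin, had 136, 120 and 122 CPM in libraries 2, 6 and 10 and 5.41, 10.8 and 4.06 CPM in libraries 4, 8 and 12. The odd-numbered libraries had 1.13 to 2.35 CPM, so that libraries 4, 8 and 12 lay between, at a log2 difference of 1.48 (SE 0.30) from libraries 3, 7 and 11.

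TPM1, which encodes a tropomyosin that covers the actin filament, had 1784, 1637 and 1485 CPM against 264, 291 and 299 CPM (log2 difference 2.52, SE 0.09). The vinculin gene VCL, whose product couples integrins to actin, had 560, 485 and 536 CPM against 211, 200 and 218 CPM. Vimentin (VIM), the intermediate filament of mesenchymal cells, differed less, with 2313, 2014 and 1921 CPM against 1224, 1170 and 1139 CPM. MYL9, the regulatory light chain of smooth muscle myosin, had 16.3, 11.4 and 21.1 CPM against 0.327 to 0.428 CPM, from 216 and 8 reads in all. PDLIM5, which encodes an actin-associated LIM protein, was the exception, with 368, 380 and 410 CPM against 1070, 1031 and 1182 CPM. No library of a set overlapped the other set for any of these genes.

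SRF acts through a sequence called the CArG box, which has CC, then A or T letters, then GG. It was found within 250 bases before the start of 4 of 19 contractile genes with a promoter in the RefSeq table (21.1%) and of 1.01% of 9756 tested protein-coding genes. The stretches of CNN2 (chr19:1026484-1026563, plus strand) and FLNA (chrX:154374684-154374763, minus strand), genes for calponin 2 and the actin crosslinker filamin A, are shown because they carry the box in list members that separated the sets. Here and below sequences are from RefSeq on GRCh38.p14, 5′ to 3′ along the gene, with the match in capitals, searched on both strands. A match is a description of letters, not of binding. The list shares cover all tested members with a promoter, also those that did not separate the sets. They describe the make-up of a list, which may have been named for targets of the factor, and not these libraries.
CNN2: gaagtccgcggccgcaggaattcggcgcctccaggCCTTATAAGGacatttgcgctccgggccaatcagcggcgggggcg
FLNA: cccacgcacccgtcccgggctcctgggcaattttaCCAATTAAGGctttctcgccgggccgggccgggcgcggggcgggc
The box ended 80 bases before the start of CNN2 and 85 before that of FLNA. CNN2 had 105, 88.4 and 115 CPM in libraries 2, 6 and 10 and 49.2, 46.7 and 46.6 CPM in libraries 4, 8 and 12. FLNA had 397, 353 and 394 CPM against 251, 215 and 192 CPM.

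The extracellular matrix list went the same way, with 25 of 34 tested members (40 listed) higher without overlap, 17 of them by at least 2-fold, and 1 lower (median log2 difference 1.02). TGFBI (chromosome 5, 136028988 to 136063818), a secreted integrin ligand named for its induction by TGF-beta, had 3382, 2782 and 2453 CPM against 579, 609 and 673 CPM.

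FBN1, the fibrillin of matrix microfibrils, had 49.6, 36.7 and 41.8 CPM against 5.26, 3.92 and 4.38 CPM, and here libraries 4, 8 and 12 were within the range of the odd-numbered ones (3.85 to 5.41 CPM). COL5A1, which encodes a fibrillar collagen chain, had 284, 215 and 241 CPM against 61.9, 39.5 and 47.2 CPM, above the 19.4 to 30.7 CPM of the odd-numbered libraries. The basement membrane collagen gene COL4A1 had 251, 203 and 188 CPM against 46.2, 40.8 and 47.0 CPM. The latter range overlapped that of libraries 3, 7 and 11 (38.7 to 42.1 CPM). Fibronectin (FN1), often used as a mesenchymal marker, differed by only 0.46 on the log2 scale (SE 0.11).

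Of 28 integrin and focal adhesion genes, 20 were higher in libraries 2, 6 and 10 without overlap, 13 by at least 2-fold, and 2 were lower (median log2 difference 0.97). ZYX, the focal adhesion protein zyxin, had 124, 102 and 76.6 CPM against 14.1, 22.5 and 29.6 CPM. Caveolae, the membrane pits coated by caveolins and cavins, were represented by CAVIN1 with 1135, 990 and 1187 CPM against 438, 441.5 and 407 CPM. ITGB5, an integrin subunit for vitronectin, was lower, with 344 to 352 CPM against 470 to 533 CPM, and both shifted sets were below the 616 to 678 CPM of the odd-numbered libraries.

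Among YAP/TAZ-TEAD targets 13 of 27 tested members were higher without overlap, 5 by at least 2-fold, and 1 was lower (median log2 difference 0.42). YAP1 itself (log2 difference 0.02) and WWTR1, which encodes TAZ (-0.09), did not separate the sets. ANKRD1, a nuclear ankyrin protein and TEAD target, had 136, 159.3 and 132 CPM against 23.2, 21.6 and 22.5 CPM, and 6.37 to 12.0 CPM in the odd-numbered libraries. The TEAD letters GGAATG were found before the start of 9 of 21 list members (42.9%) and of 9.45% of all 9756 genes. The stretch of ANKRD1 (chr10:90921173-90921252, minus strand) holds the nearer of its 2 matches, which ended 123 bases before the start, and is shown for the list member with the largest difference.
ANKRD1: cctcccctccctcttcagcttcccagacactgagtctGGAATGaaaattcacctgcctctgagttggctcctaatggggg

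Secreted factors linked to senescence, a stable arrest in which cells release cytokines and proteases, were higher in 24 of 37 tested members without overlap (17 by at least 2-fold) and lower in 3. The chemokine gene CCL2 had 160, 165 and 137 CPM against 15.8, 24.2 and 22.7 CPM, and 6.45 to 10.4 CPM in the odd-numbered libraries. IL11, a cytokine induced by TGF-beta, had 76.1, 58.5 and 44.6 CPM against 10.2, 10.8 and 11.5 CPM. IGFBP7, a secreted growth factor-binding protein, had 383, 376 and 264 CPM against 77.8, 60.1 and 52.7 CPM. The metalloprotease inhibitor gene TIMP2 had 911, 844 and 956 CPM against 223, 262 and 264.5 CPM. Neutrophil chemokines went the other way: CXCL3 had 2.67, 3.17 and 3.87 CPM against 11.7, 10.5 and 12.8 CPM, and CXCL5 had 80.8, 123 and 92.8 CPM against 186, 197 and 186 CPM. The NF-κB chemokine genes CXCL1 and CXCL2 overlapped between the sets, and IL6 did not pass the filter.

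Markers of other cell types were read beside these genes. Of 10 fibroblast markers 3 passed the filter and POSTN had 0 counts in all libraries. The summed level of the 10 was 160 to 218 CPM in libraries 2, 6 and 10, 36.8 to 36.9 CPM in libraries 4, 8 and 12 and 17.9 to 25.5 CPM in the odd-numbered ones, most of it from COL1A1. LUM, a collagen-binding proteoglycan, had 13.6, 11.3 and 11.6 CPM against 0.142, 0 and 0.214 CPM, a ratio of 79.1 with a 95% counting interval of 26.6 to 387 (176 against 3 reads). Without COL1A1 and LUM, left out after their values were seen, the sums were 8.88 to 14.2, 7.55 to 7.90 and 1.61 to 4.54 CPM. None of 8 endothelial markers passed the filter, with sums of at most 1.07 CPM, and 2 of 10 immune markers did, with sums of 7.51 to 12.1, 6.24 to 7.49 and 7.79 to 12.5 CPM. The part of other cells in the matrix and secreted lists was not tested. In bulk RNA fewer cells of a state and less RNA per cell cannot be told apart.

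Epithelial junction and identity genes went both ways. Of 29 tested members 12 were higher in libraries 2, 6 and 10 than in 4, 8 and 12 without overlap and 5 lower, and the median log2 difference of 0.30 became 0.06 without library 4. Against libraries 1, 5 and 9, 10 members were higher and 15 lower (median -0.28). The E-cadherin gene CDH1 had 24.3, 30.2 and 24.9 CPM against 59.3, 54.2 and 55.3 CPM, and the N-cadherin gene CDH2 had 208, 194 and 207 CPM against 87.6, 83.6 and 90.7 CPM. Of the 10 tested cadherins and transcription factors of the epithelial-mesenchymal transition (EMT), 3 were higher without overlap and 3 lower, and their median log2 difference of 0.11 became -0.06 without library 10. CLDN4, a tight junction claudin, had 16.9, 10.6 and 16.5 CPM against 1.28, 3.92 and 3.53 CPM. SNAI1, a repressor of CDH1, had 8.24, 10.6 and 4.57 CPM against 3.84, 2.29 and 3.10 CPM, and 0.922 to 1.73 CPM in the odd-numbered libraries. ZEB1, another such repressor, did not separate the sets (log2 difference -0.03).

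Keratin genes were higher in libraries 2, 6 and 10, where 6 of 10 tested keratin genes were higher without overlap (5 by at least 2-fold) and 2 lower. KRT18 had 8457, 8021 and 6114 CPM against 3020, 3173 and 3356 CPM, and KRT80 had 178, 140 and 163 CPM against 49.5, 59.4 and 61.0 CPM. Libraries 4, 8 and 12 lay between for KRT80, whose odd-numbered libraries had 23.3 to 30.4 CPM. KRT4, a keratin of stratified epithelia, was instead the highest in libraries 4, 8 and 12, with 38.4, 40.2 and 39.6 CPM against 4.90, 4.69 and 3.87 CPM and 23.1 to 27.8 CPM in the odd-numbered ones. It was not on the keratin list and entered as one of the genes with the lowest log2 differences.

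Of 14 tested members of the list of mucins and secretory products 6 were lower in libraries 2, 6 and 10 without overlap, all 6 by at least 2-fold, and 2 were higher. The median log2 difference was -0.81, and -0.39 without library 12. MUC3A, a membrane-bound mucin gene outside the list, was higher, with 28.7, 19.3 and 23.2 CPM against 0.569, 1.63 and 0.962 CPM (335 against 18 reads). The gel-forming mucin gene MUC5AC had 0.223, 1.24 and 2.46 CPM against 25.9, 21.6 and 26.4 CPM. AGR2, an endoplasmic reticulum protein needed for mucin folding, had 291, 393 and 333 CPM against 641, 836 and 829 CPM. SLPI, a secreted protease inhibitor of the airway, had 1.78, 1.93 and 1.05 CPM against 12.1, 9.47 and 12.3 CPM. Liver-type genes, which A549 cells are known to express in part, split: 7 of 21 were higher without overlap and 8 lower. The urea cycle enzyme gene CPS1 had 7.12, 5.79 and 8.43 CPM against 56.9, 80.01 and 113 CPM, while BAAT, which conjugates bile acids, had 55.7, 49.1 and 52.4 CPM against 4.41, 3.92 and 2.78 CPM.

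The cell cycle separated the sets as broadly as the cytoskeleton. Of 47 DNA replication and G1/S genes 43 were lower in libraries 2, 6 and 10 without overlap, 12 of them by at least 2-fold, and 1 was higher (CCNE1, log2 difference 0.40). The median log2 difference was -0.72 against libraries 4, 8 and 12, and the latter differed from libraries 3, 7 and 11 by a median of -0.05. MCM2, a subunit of the replicative helicase, had 26.3, 32.1 and 26.4 CPM against 69.1, 72.8 and 67.0 CPM. Of 24 homologous recombination and Fanconi genes 19 were lower and 0 higher (median -0.83), with FANCI at 36.3, 33.4 and 26.7 CPM against 73.5, 81.0 and 77.6 CPM.

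Mitosis genes showed the same order with smaller ratios. Of 48 tested members 42 were lower without overlap, but only 3 by at least 2-fold, and 0 were higher (median -0.64). KIF11, the spindle motor Eg5, had 28.7, 42.1 and 29.2 CPM against 65.6, 79.4 and 71.2 CPM. ECT2, which starts the cleavage furrow, had 74.8, 90.9 and 73.8 CPM against 149, 170 and 173 CPM. MKI67, the proliferation marker, had 127, 151 and 175 CPM against 227, 249 and 214 CPM, so transcripts of cycling cells were lower and not lost. For MCM2, FANCI, KIF11, ECT2 and MKI67 the range of libraries 4, 8 and 12 overlapped that of the odd-numbered libraries.

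Promoters of both lists are known for the sites of E2F and of the DREAM complex, which DYRK kinases help to assemble and which binds the cell cycle genes homology region (CHR). An E2F match (TTTGGCGC, TTTCCCGC, TTTGGCGG or TTTCGCGC) was found before the start of 14 of 40 replication genes (35.0%) and of 4.58% of all 9756 genes. A CHR match (TTTGAA or TTCGAA) was found in 21 of 40 mitosis genes (52.5%) and in 9.81% of all genes. LIG1 (DNA ligase 1, chr19:48170415-48170494, minus strand) and POLA1 (DNA polymerase alpha, chrX:24693745-24693824, plus strand, match on the other strand) show the first. KIF11 (chr10:92593050-92593129, plus strand, match on the other strand) and ECT2 (chr3:172750574-172750653, plus strand) show the second.
LIG1: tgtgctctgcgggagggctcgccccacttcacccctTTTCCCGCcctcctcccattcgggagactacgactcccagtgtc
POLA1: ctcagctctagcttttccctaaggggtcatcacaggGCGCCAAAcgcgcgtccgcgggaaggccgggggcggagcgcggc
KIF11: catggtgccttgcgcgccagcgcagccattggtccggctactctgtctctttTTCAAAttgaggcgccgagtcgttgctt
ECT2: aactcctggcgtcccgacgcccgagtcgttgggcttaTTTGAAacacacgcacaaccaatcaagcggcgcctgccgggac
LIG1 had 5.79, 4.97 and 9.49 CPM in libraries 2, 6 and 10 against 19.5, 12.1 and 12.7 CPM, and POLA1 had 16.3, 13.8 and 16.2 CPM against 34.0, 33.6 and 33.0 CPM. All 4 genes were lower without overlap.

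The death receptor gene FAS had 31.8, 31.7 and 29.9 CPM in libraries 2, 6 and 10 and 7.97, 5.55 and 6.31 CPM in libraries 4, 8 and 12. MDM2, which encodes a ubiquitin ligase, had 153, 160 and 161 CPM against 93.6, 84.3 and 86.2 CPM. Both were higher without overlap, like CDKN1A, while GDF15, a secreted stress cytokine gene, overlapped and the pro-apoptotic gene BBC3 was lower (log2 difference -0.61).

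Of the 6 tested CDK inhibitors, CDKN1A and CDKN1C were higher without overlap and 3 were lower. CDKN1B, which encodes p27, had 29.8, 36.0 and 27.1 CPM in libraries 2, 6 and 10 against 56.5, 54.9 and 52.7 CPM, and CDKN1C (p57) had 10.2, 8.69 and 8.78 CPM against 6.12, 4.25 and 4.49 CPM. Cyclin D genes were higher: CCND1 had 248, 239 and 255 CPM against 184, 203 and 208 CPM, and CCND3 had 138, 132 and 147 CPM against 55.3, 72.2 and 67.8 CPM. LMNB1, a lamin that is typically reduced in senescent cells, had 55.9, 70.9 and 55.2 CPM against 115, 117 and 95.2 CPM. Of 75 ribosomal protein genes 61 were lower without overlap and 0 higher, none by 2-fold (median -0.47).

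The sets were chosen in part by DYRK1B levels, so the difference of this gene is built into the choice and is given as a description. Among 19 tested DYRK, HIPK and CLK genes and partners, no gene other than DYRK1B differed by 2-fold. Of these, 8 were lower in libraries 2, 6 and 10 without overlap and 3 higher. DYRK1A, the closest relative, had a log2 difference of -0.39. DYRK3, which dissolves stress granules and other condensates, was at 18.6 to 28.1 CPM against 12.4 to 15.4 CPM. DCAF7, a scaffold bound by DYRK1B, was at 213, 228 and 240 CPM against 302, 296 and 243 CPM.

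The integrated stress response level is one of the properties by which both sets were chosen. It is given for reference, and the members are described below. The level of the list was 0.29, 0.27 and 0.25 in libraries 2, 6 and 10, 0.38, 0.19 and 0.23 in libraries 4, 8 and 12, and -0.34 to -0.22 in the odd-numbered libraries. Relative to libraries 1, 5 and 9 the first set had a median log2 difference of 0.47, and relative to libraries 3, 7 and 11 the second had 0.45. Between the shifted sets, 13 of 34 tested members were higher in libraries 2, 6 and 10 without overlap and 10 were lower, beside 24.7% and 22.3% of all genes. The median log2 difference was -0.09, -0.01 without library 4 and -0.14 without library 8. ATF4, the factor whose translation drives the programme, overlapped, with 354, 353 and 371 CPM against 432, 323 and 402 CPM. DDIT3, which encodes CHOP, overlapped too.

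Several biosynthetic members were higher in libraries 4, 8 and 12. PHGDH, the first enzyme of serine synthesis, had 127, 97.0 and 118 CPM in libraries 4, 8 and 12, 47.9, 51.5 and 60.1 CPM in libraries 2, 6 and 10, and 21.1 to 37.3 CPM in the odd-numbered libraries. PSAT1, the next enzyme, had 216, 193 and 179 CPM against 129, 130 and 107 CPM, and the mitochondrial folate enzyme gene MTHFD2 had 187, 168 and 148 CPM against 124, 121 and 99.8 CPM. PCK2, the mitochondrial enzyme that makes phosphoenolpyruvate, had 56.9, 42.8 and 48.4 CPM against 25.2, 20.7 and 24.9 CPM. For PCK2 libraries 2, 6 and 10 were near the odd-numbered libraries (19.1 to 23.7 CPM). The proline synthesis gene PYCR1 had a log2 difference of -0.53 (SE 0.11). Others of these pathways did not go this way: the serine synthesis gene PSPH was higher in libraries 2, 6 and 10 without overlap (log2 difference 0.33), and SHMT2 (one-carbon metabolism) and ALDH18A1 (proline synthesis) overlapped.

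Other members were higher in libraries 2, 6 and 10. SLC7A5, a leucine transporter, had 274, 229 and 260 CPM in libraries 2, 6 and 10 against 155, 151 and 143 CPM, and its partner chain SLC3A2 had 678, 636 and 656 CPM against 477, 409 and 428 CPM. TRIB3, a pseudokinase that restrains ATF4, had 108, 104 and 99.4 CPM against 64.2, 61.7 and 64.6 CPM, with 28.2 to 41.2 CPM in the odd-numbered libraries. ATF3, a stress-induced repressor, was the only member higher in libraries 2, 6 and 10 by 2-fold, at 28.7, 25.4 and 16.5 CPM against 3.13, 5.55 and 7.27 CPM. Transporters and regulators also went the other way: the glutamine transporter gene SLC38A2 was lower in libraries 2, 6 and 10 (log2 difference -0.75). DDIT4, an inhibitor of mTORC1, was low there, at 66.8 to 78.1 CPM against 148 to 224 CPM in libraries 4, 8 and 12 and 137 to 269 CPM in the odd-numbered ones.

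**Figure D3:**
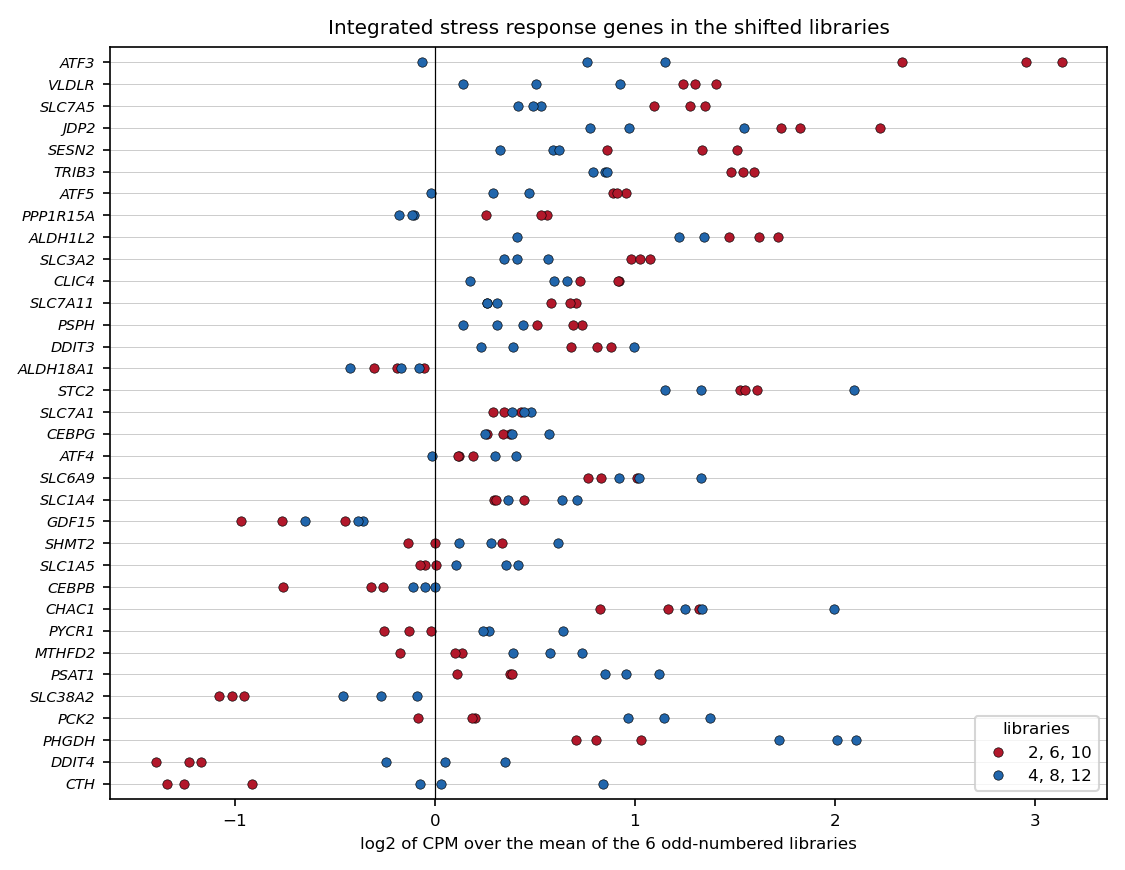
Log2 of the CPM in each shifted library over the mean of the 6 odd-numbered libraries, for each tested gene of the integrated stress response list, ordered by the difference of the sets, with red points for libraries 2, 6 and 10 and blue points for 4, 8 and 12. PHGDH, PCK2, PSAT1 and MTHFD2 are further to the right in libraries 4, 8 and 12, and ATF3, SLC7A5, TRIB3 and SLC3A2 in libraries 2, 6 and 10.

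The ATF4 letters TGATGNAA were found before the start of 3 of 29 list members (10.3%) and of 1.35% of all 9756 genes. They are shown for ATF3 (chr1:212565180-212565259, plus strand) and for the glutamine transporter gene SLC1A5 (chr19:46784868-46784947, minus strand), because these members with the same letters lay on opposite sides.
ATF3: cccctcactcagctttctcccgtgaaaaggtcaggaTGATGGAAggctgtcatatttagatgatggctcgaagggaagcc
SLC1A5: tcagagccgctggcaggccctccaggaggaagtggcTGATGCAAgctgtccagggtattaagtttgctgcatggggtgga
SLC1A5 had 152, 149 and 158 CPM in libraries 2, 6 and 10 and 210, 169 and 201 CPM in libraries 4, 8 and 12. Of 20 aminoacyl-tRNA synthetase genes, which charge tRNAs with amino acids, 8 were lower in libraries 2, 6 and 10 without overlap and 3 higher. AARS1 had 150, 129 and 164 CPM against 318, 223 and 254 CPM, and WARS1 had 94.0, 84.8 and 101 CPM against 65.2, 70.2 and 66.3 CPM.

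Hypoxia and glycolysis genes were set apart by libraries 4, 8 and 12. The level of this list was 0.15, 0.06 and 0.01 in libraries 2, 6 and 10, -0.36, -0.33 and -0.31 in libraries 4, 8 and 12, and 0.04 to 0.33 in the odd-numbered libraries. Of 34 tested members 16 were higher in libraries 2, 6 and 10 without overlap, 6 by at least 2-fold, and 3 were lower. PGK1, a glycolytic kinase, had 628, 622 and 552 CPM against 452, 502 and 493 CPM, and both sets were below the 809 to 927 CPM of the odd-numbered libraries. P4HA1, a collagen prolyl hydroxylase, had 82.8, 82.1 and 81.5 CPM against 47.5, 58.1 and 53.4 CPM, and in the odd-numbered libraries 71.0 to 82.6 CPM. SLC2A1, the glucose transporter GLUT1, had 230, 206 and 221 CPM against 97.3, 98.6 and 107 CPM, and here the odd-numbered libraries (80.3 to 119 CPM) were with libraries 4, 8 and 12.

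Of the lipid lists, sterol synthesis was also lowest in libraries 4, 8 and 12. Its level was 0.14, 0.01 and 0.02 in libraries 2, 6 and 10 and -0.32, -0.29 and -0.24 in libraries 4, 8 and 12. Without overlap 13 of 24 members were higher and 2 lower. The odd-numbered sets differed the same way, with 0.23 to 0.30 in libraries 1, 5 and 9 and -0.07 to 0.03 in 3, 7 and 11. The median log2 difference was 0.33 between the shifted sets and 0.24 between the odd-numbered sets. Fatty acid synthesis was at 0.15 to 0.20 in libraries 2, 6 and 10, -0.21 to -0.13 in 4, 8 and 12 and -0.09 to 0.07 in the odd-numbered libraries. The stearoyl desaturase gene SCD had 614, 681 and 586 CPM against 510, 478 and 491 CPM, and 661 CPM or more in the odd-numbered libraries. TXNIP, which restrains glucose uptake, had 6.01, 10.5 and 10.2 CPM against 4.69, 1.31 and 3.53 CPM, and 9.68 to 16.9 CPM in the odd-numbered ones. For SCD and TXNIP libraries 4, 8 and 12 were the lowest of the 4 sets.

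Of 28 interferon-stimulated genes 13 were higher in libraries 2, 6 and 10 without overlap (9 by at least 2-fold) and 3 lower. Among all genes 24.7% were higher and 22.3% lower. The median log2 difference of the list was 0.30, and 0.15 without library 2. ISG15, a ubiquitin-like modifier, had 27.4, 23.2 and 23.9 CPM against 9.96, 5.23 and 5.45 CPM. The lysosomal cholesterol-binding protein gene NPC2 had 206, 179 and 179 CPM against 44.5, 45.7 and 43.5 CPM. The metallothionein gene MT2A had 1686, 1475 and 1441 CPM against 453, 364 and 360 CPM. Without overlap, 16 of 36 lysosome genes were higher and 6 lower, and for MHC class I and peptide loading these counts were 9 and 1 of 18. EGFR, the epidermal growth factor receptor, had 152, 169 and 175 CPM against 79.7, 75.8 and 78.0 CPM, and 46.1 to 63.5 CPM in the odd-numbered libraries.

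The other lists are given by the members higher and lower in libraries 2, 6 and 10 without overlap. Cyclins, CDKs and the RB family had 5 and 10 of 19, and nuclear lamina and senescence-linked chromatin genes had 1 and 11 of 14. Fatty acid synthesis had 8 and 2 of 15, and endoplasmic reticulum chaperones had 2 and 7 of 24. The nuclear genes of the respiratory chain had 0 and 21 of 49, while the mitochondrially encoded genes had 1 and 0 of 15. The EGFR family and its ligands had 8 and 6 of 21, TGF-beta ligands, receptors and SMADs had 10 and 9 of 28, HOX clusters had 10 and 3 of 25, and genes of A549 identity had 4 and 9 of 16. The shares over all genes are 24.7% and 22.3%.

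For genes such as TAGLN and KRT80 libraries 4, 8 and 12 took a position between the odd-numbered libraries and libraries 2, 6 and 10. Shared direction, not an intermediate position, was counted over all genes without shared libraries. Libraries 2, 6 and 10 were set against 1, 5 and 9, and libraries 4, 8 and 12 against 3, 7 and 11. Both shifted sets were chosen for a high integrated stress response, so part of a shared direction is built into the choice. Of 1393 genes higher in the first comparison (no overlap, at least 2-fold), 386 (27.7%) were also higher in the second without overlap, 34 (2.44%) were lower and 973 overlapped. Of 886 genes lower in the first comparison, 213 (24.0%) were lower in the second, 21 (2.37%) were higher and 652 overlapped. Among all genes the second comparison had 8.80% higher and 8.53% lower, and the first had 27.2% and 27.0% without the fold limit. The median log2 differences of the 1393 genes were 1.67 and 0.29, and those of the 886 genes -1.41 and -0.24.

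The shifted sets were called high relative to the odd-numbered libraries, which thus served as a reference. The rule for the shifted sets named no difference between libraries 1, 5 and 9 and libraries 3, 7 and 11. That difference was tested to see whether the same separation exists there. Libraries 1, 5 and 9 were compared with 3, 7 and 11 by edgeR's quasi-likelihood test with Benjamini-Hochberg adjustment over all genes. The number pattern was itself recognised in these data, so the p-values describe libraries grouped in this way and are no independent test of the pattern. Of the 13838 genes 210 (1.52%) were higher in libraries 1, 5 and 9 and 156 (1.13%) were lower at an adjusted p under 0.05, 2.64% in all. Without library 1 these counts were 107 and 79, without library 5 they were 123 and 80, and without library 9 they were 150 and 81. CDKN1A (log2 difference -0.37, adjusted p = 0.064) and DYRK1B (-0.04, adjusted p = 0.97) were not among them by this test.

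Most genes that separated the shifted sets did not separate the odd-numbered sets. Of the 1131 genes higher in libraries 2, 6 and 10, 47 passed the odd-numbered test in the same direction and 17 in the opposite one, and of the 654 lower genes 37 and 28 did. By the rule of no overlap and 2-fold, 60 of the 1131 (5.30%) were also higher in libraries 1, 5 and 9 than in 3, 7 and 11, beside 1.22% of all genes, and 28 of the 654 (4.28%) were also lower, beside 0.983%. From the other side, 84 of the 210 genes (40.0%) were higher in libraries 2, 6 and 10 than in 4, 8 and 12 without overlap and 57 (27.1%) were lower. Of the 156 genes 69 (44.2%) were lower there and 42 (26.9%) higher. Among all genes 24.7% were higher and 22.3% lower, so the shares in the same direction were above those of all genes. Across the 13838 genes the log2 differences of the comparisons had a Pearson's r of 0.09 and a Spearman's rho of 0.11, and genes are not independent of each other. The mesenchymal and contractile list had a median log2 difference of -0.11 in the odd-numbered sets, with 2 of 21 members higher by the test. No member of the replication or mitosis lists passed it. Other lists did differ there. Mucins and secretory products had a median of 1.12, with 8 of 14 members higher by the test. A549 identity genes had 7 of 16 higher, NRF2 and aldo-keto reductase genes 7 of 36 higher and secreted senescence-linked factors 6 of 37 lower. The medians of these lists had the opposite sign between the shifted sets. Epithelial junction and identity genes had a median of 0.27, beside 0.30 between the shifted sets.

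**Figure D4:**
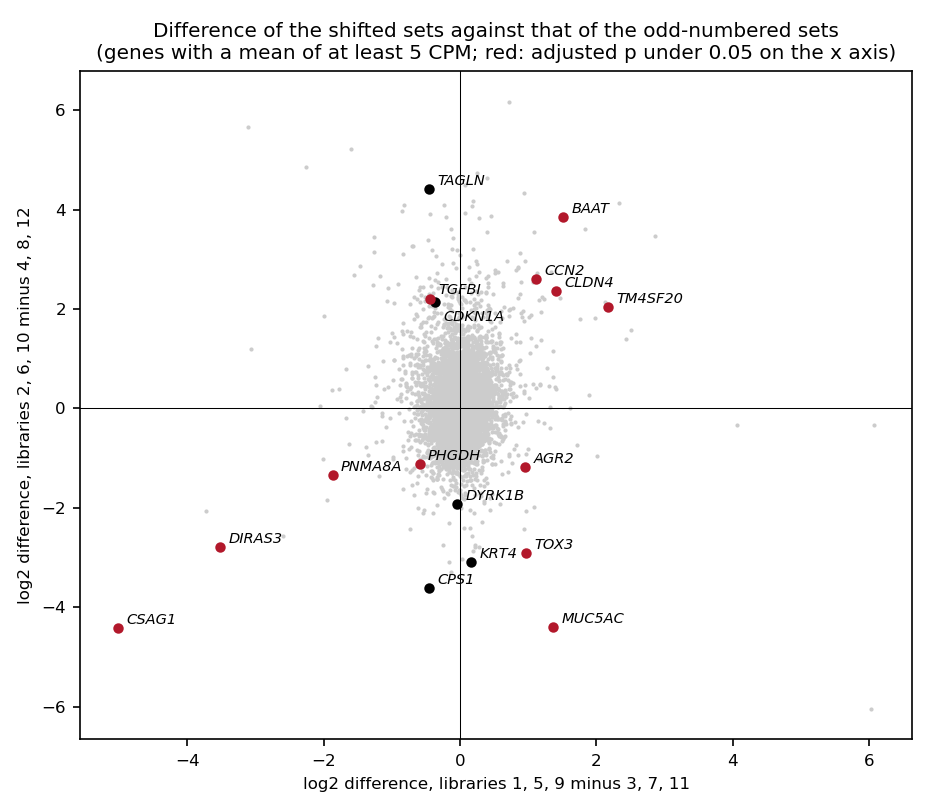
Log2 difference between libraries 2, 6, 10 and 4, 8, 12 (vertical) against that between libraries 1, 5, 9 and 3, 7, 11 (horizontal), 1 point per gene for 10598 genes with a mean of at least 5 CPM over the shifted libraries, with named genes in red where the odd-numbered test passed (adjusted p under 0.05) and in black otherwise. TAGLN, KRT4 and CPS1 lie near the vertical axis, CSAG1 and DIRAS3 at the lower left, and MUC5AC and TOX3 at the lower right.

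Some genes separated both pairs of sets in the same way, and these were chosen after their values were seen. CSAG1 (chromosome X, 152727484 to 152733721), a cancer-testis gene that is normally silent outside the germ line, had 0.445, 0.828 and 0.351 CPM in libraries 2, 6 and 10 and 13.1, 14.04 and 13.4 CPM in libraries 4, 8 and 12. Libraries 1, 5 and 9 had 0.221 to 0.447 CPM and libraries 3, 7 and 11 had 8.95 to 11.3 CPM (log2 difference -5.01, SE 0.34, edgeR adjusted p = 1.2e-06). Its neighbour MAGEA12 (chromosome X, 152733757 to 152737669), another cancer-testis gene, had 0, 0.414 and 0 CPM, then 6.83, 5.88 and 6.84 CPM, 0.177 to 0.717 CPM and 5.85 to 8.85 CPM in the same order of sets (edgeR adjusted p = 4.4e-05 for the odd-numbered libraries). GABRA3 (chromosome X, 152166234 to 152451315), a GABA receptor subunit gene, had 0.445, 0.828 and 1.76 CPM, 5.12, 3.92 and 6.10 CPM, 0.265 to 0.559 CPM and 6.19 to 6.81 CPM. CSAG and MAGEA genes have near-identical copies, so reads could be split or dropped between copies in counting.

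DIRAS3 (chromosome 1, 68045962 to 68050627), an imprinted small GTPase gene, had 0.668, 4.41 and 0.351 CPM in libraries 2, 6 and 10, 17.9, 13.4 and 17.0 CPM in libraries 4, 8 and 12, 2.92 to 5.81 CPM in 1, 5 and 9 and 47.7 to 53.4 CPM in 3, 7 and 11. Its log2 difference was -3.52 in the odd-numbered sets (SE 0.19, edgeR adjusted p = 2.8e-07). In the shifted sets it was -2.79, and -4.88 without library 6. TM4SF20, a tetraspanin-like membrane protein gene, had the reverse order, with 99.7, 118 and 103 CPM, 19.5, 23.8 and 33.6 CPM, 190 to 217 CPM and 22.6 to 61.9 CPM (2.17 in the odd-numbered sets, SE 0.23, edgeR adjusted p = 1.1e-04). CCN2, the matricellular YAP target also called CTGF, had 87.3, 82.6 and 64.3 CPM, 11.5, 9.80 and 15.9 CPM, 18.2 to 22.2 CPM and 8.40 to 11.0 CPM (1.11, SE 0.15, edgeR adjusted p = 8.4e-04). For CCN2 libraries 1, 5 and 9 were nearer to 4, 8 and 12 than to 2, 6 and 10.

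**Figure D5:**
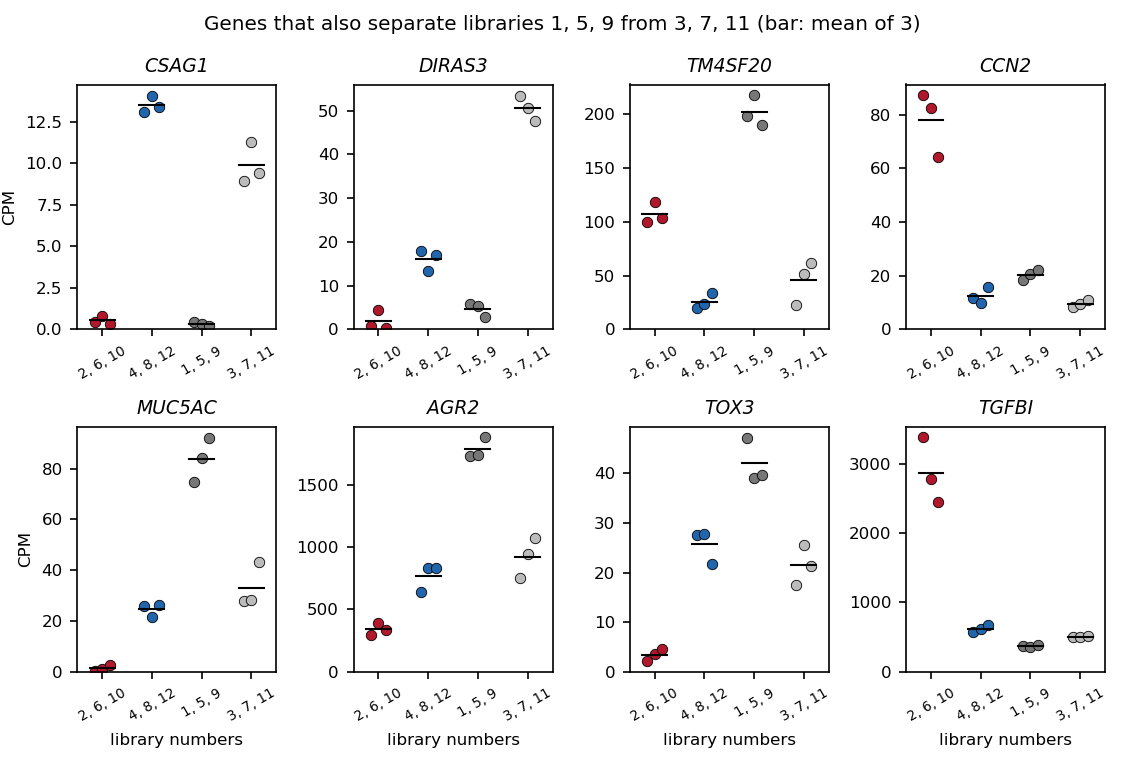
CPM (linear axes from 0) of 8 genes past the odd-numbered test in each library of the 4 sets, with a bar for the mean of 3. In the upper row libraries 2, 6, 10 differ from 4, 8, 12 in the same direction as 1, 5, 9 from 3, 7, 11, and in the lower row (MUC5AC, AGR2, TOX3 and TGFBI) in the opposite direction.

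Promoter letters were also counted over all genes that separated the shifted sets. The AP-1 letters TGANTCA, bound by JUN and FOS factors, were present before the start of 67 of 723 higher protein-coding genes (9.27%), 18 of 365 lower genes (4.93%) and 4.10% of all 9756. TEAD letters were present in 12.6%, 8.22% and 9.45%, E2F letters in 2.21%, 5.48% and 4.58%, and CHR letters in 9.82%, 12.9% and 9.81%. The CArG box was present in 1.52%, 1.1% and 1.01%, and ATF4 letters in 2.07%, 1.1% and 1.35%. These shares describe a window of 250 bases and were not tested.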

How the data were processed

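RNA of 12 libraries was read by 3' tag sequencing (QuantSeq FWD V2, per the labels' protocols). For each library and strand the authors deposited gene counts in whole reads, not normalized, and a merged table. Reads were aligned with STAR to GRCh38.p14, per the submitters' processing notes, with the version, annotation and use of molecular identifiers not stated there. All 40605 merged rows equalled a transcript-strand row, and transcript-strand counts were used. Reads in no gene (35.5 to 43.2%) were left out. The opposite strand held 7.25 to 8.07%. Reads are not independent molecules, so floors of 3 counts and counting intervals (exact, 95%) cover counting error only.

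Counts were filtered (filterByExpr, minimum count 10), scaled by TMM and given as CPM in edgeR 4.0.16 (R 4.3.3). The log2 differences and standard errors (SE) come from quasi-likelihood fits, without p-values between the shifted sets because their values chose them. The test across the odd-numbered sets was fitted on those 6 libraries. The libraries of a set are cultures grown in parallel, but they carry titles of different groups and were grouped by the number pattern. The p-values of the test therefore measure the spread between libraries grouped in this way, not between labelled replicates. List levels use log2 CPM with a prior count of 2. Coordinates and promoters are from RefSeq (GRCh38.p14). Counts of 13838 genes were also simulated. For libraries 1, 5 and 9 against 3, 7 and 11 edgeR's test recovered 36% of 1.5-fold, 78% of 2-fold and 96% of 4-fold changes. For libraries 2, 6 and 10 against 4, 8 and 12 the rule of no overlap and 2-fold recovered 6%, 48% and 99%. It called 0.704% of unchanged genes.

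The library sets, markers, 38 gene lists and the number pattern were chosen with earlier results of these data known. The named genes are CDKN1A, DYRK1B and 11 fixed genes, the 12 highest and lowest log2 differences without overlap at a mean of at least 5 CPM, the 6 by difference of means, up to 4 separating members per list (or the 2 with the highest mean), and 6 in each direction with the smallest odd-numbered difference. Other genes were named after their values were seen. Many genes that the rule names are left to the counts, and some genes and 1 list are not reported here. Alternatives were other scaling, filters, folds, unstranded counts, the merged table, equal depth, DESeq2 1.42.0, limma-voom (limma 3.58.1), blocks and leaving out each library.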

Additional observations from a re-analysis of the deposited data

Results flagged for a closer look

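For 11 of the named genes the 3 libraries of each set lay without overlap in one order in the shifted sets and in the opposite order in the odd-numbered sets, where edgeR's adjusted p was under 0.05. Many named genes were chosen for separating the shifted sets. Of all 210 genes higher and 156 lower by the odd-numbered test, 57 (27.1%) and 42 (26.9%) lay in the opposite order in the shifted sets without overlap. These shares are near the 22.3% lower and 24.7% higher of all genes. The same order in the shifted sets was taken by 40.0% and 44.2%, beside 24.7% and 22.3% of all genes. The difference between the 2 orders was not tested, since the shifted sets were chosen by their values. Values are log2 differences, libraries 2, 6, 10 minus 4, 8, 12 first and libraries 1, 5, 9 minus 3, 7, 11 second.

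Secretory genes were low in libraries 2, 6 and 10 and highest in 1, 5 and 9. MUC5AC had -4.40 and 1.36, AGR2 had -1.18 and 0.95, and the epithelial nuclear protein gene TOX3 had -2.91 and 0.97. The mucin gene MUC5B had -5.69 and 1.29, where the first value rests on 1 read in libraries 2, 6 and 10 against 84 and becomes -8.15 without library 6, so it is no bound. From the reads, libraries 4, 8 and 12 were 62.3-fold higher, with a 95% counting interval of 10.9 to 2489. The cytochrome P450 gene CYP4F11 had -1.01 and 1.16, and the aldehyde dehydrogenase gene ALDH3A1 had -1.92 and 0.58. PDLIM5 had -1.50 and 0.39, and the fibrinogen chain gene FGB had -1.32 and 0.61.

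The opposite arrangement was found for TGFBI, with 2.21 and -0.44, for the growth factor gene TGFB2, with 1.89 and -0.65, and for the EGFR family ligand gene NRG1, with 1.27 and -0.34. With 1 library left out, the odd-numbered call of 5 of these genes was lost in at least 1 case, in edgeR's test. The adjusted p reached 0.139 for ALDH3A1 (without library 1, 5 or 11), 0.0839 for PDLIM5 (without 5), 0.173 for FGB (without 1, 5, 7 or 9), 0.177 for NRG1 (without any odd-numbered library) and 0.186 for TGFB2 (without 1, 3, 4, 7, 9 or 11). MUC5AC, MUC5B, TOX3, AGR2, CYP4F11 and TGFBI kept it in each of the 12 cases.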

How the results depend on the processing

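Scaling did not decide the split: 63.4% of separating genes were higher in libraries 2, 6 and 10 with TMM, 63.3% with DESeq2 size factors and 59.9% with upper-quartile factors, and the median of all genes was 0.01, 0.00 and -0.04. The counts of 1131 higher and 654 lower genes became 2049 and 1574 at a 1.5-fold limit and 369 and 138 at a 4-fold limit. With 1 library left out they were 1172 to 1353 and 669 to 891. The odd-numbered test, with 210 and 156 genes, gave 390 and 319 without a filter and 134 and 87 at equal depth. With 1 library left out it gave 107 to 214 and 79 to 162. DESeq2 called 459 and limma-voom 358 genes in all, beside 366 with edgeR. The share of separating genes whose odd-numbered sets differed the same way (no overlap, 2-fold) was 5.30% of the higher genes, 2.71% at the 4-fold limit, 3.84% at equal depth and 4.88 to 7.13% with 1 library left out. For the lower genes it was 4.28%, 7.97% at the 4-fold limit and 3.70 to 5.74% with 1 library left out. The shares of 27.7% and 24.0% for libraries 4, 8 and 12, added after the data were seen, stayed within 26.6 to 36.2% and 21.8 to 35.4% with 1 library left out.

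The level difference of the list of TGF-beta ligands, receptors and SMADs was -0.035 with a prior count of 0.5, against a positive value with 2. Of 5261 recomputed differences of named genes between the shifted sets, 78 moved by more than the spread of the libraries, and 7, of at most 0.24 on the log2 scale, changed sign. Of 776 list medians 121 moved so, and 15, of at most 0.12, changed sign. With 1 library left out, sign changes included the EMT list (0.11, then -0.06 without library 10), the EGFR family (0.03, then -0.23 without library 12) and the mitochondrially encoded genes (-0.01, then 0.19 without library 4). Of 6017 recomputed odd-numbered differences 106 lost and 36 gained the call, and 262, of at most 2.26 on the log2 scale, changed sign. Libraries with the same replicate number in their titles were compared only between the 2 odd-numbered sets and between the 2 shifted sets. Their deviations from the set means correlated by -0.126 to 0.064. So few pairs cannot exclude a pairing by title number. Neighbouring libraries of the shifted sets (2 with 4, 6 with 8, 10 with 12) correlated by 0.14, 0.192 and 0.08, and those of the odd-numbered sets by -0.07 to 0.0725. A block of 4 consecutive library numbers gave 201 and 151 genes. A replicate block on these numbers gave 178 higher and 119 lower genes in the odd-numbered test. Depth limits genes with few reads, as 3 counts are 1.07 CPM in library 10.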

Other observations

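RPL6P19, a ribosomal pseudogene chosen after its values were seen, passed the odd-numbered test (edgeR adjusted p = 0.0058) although its level jumped within sets: it was at 312 CPM in library 6 and 404 CPM in library 4, and at 0.891 to 3.31 CPM in the other shifted libraries. In libraries 1, 5 and 9 it ranged from 2.97 to 295 CPM. Reads of such near-identical copies can be assigned to different copies from library to library, and whether this happened was not tested.

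The stem cell transcription factor gene SOX2 had 11.1, 13.9 and 11.9 CPM in libraries 2, 6 and 10, 29.0, 35.3 and 32.9 CPM in libraries 4, 8 and 12 and 44.0 to 52.4 CPM in the odd-numbered libraries. PDK4, a kinase that restrains pyruvate oxidation, had the same order, with 24.0, 29.2 and 28.5 CPM, 185, 195 and 189 CPM, and 255 to 359 CPM. DKK1, a secreted WNT antagonist, had 162, 167 and 137 CPM in libraries 2, 6 and 10 and 441 to 542 CPM in the other 9 libraries. HMOX1, the heme oxygenase gene of the NRF2 programme, had 43.2, 35.7 and 43.6 CPM in libraries 2, 6 and 10 and 5.88 to 14.6 CPM in the other 9, although 21 of 36 tested genes of the NRF2 and aldo-keto reductase list were lower there than in libraries 4, 8 and 12 without overlap and 5 were higher.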
